A study of Mus musculus with 9 samples.

Results

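The genes described here encode the nuclear-made subunits of mitochondrial respiratory complexes II, III, IV and V. They were chosen by symbol, as every row of the deposited count table that starts with Uqcr, with Cox followed by a digit from 4 to 8, or with Atp5, together with Sdha, Sdhb, Sdhc and Sdhd. The rule found 47 of 23413 genes, of which 4 belong to complex II, 8 to complex III, 18 to complex IV and 17 to complex V. Of these, 41 had enough counts to be tested. By their annotation 3 of the 47 are not subunits: Cox7a2l encodes a factor that joins complexes III and IV into supercomplexes, and Atp5s and Atp5sl, now named Dmac2l and Dmac2, carry older names that resemble those of ATP synthase subunits. The rule used no measured value.

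The libraries are polyA RNA-seq of liver macrophages, sorted as F4/80+CD11b+ cells with low Gr1, from male C57BL/6 mice. The 2 ND libraries come from mice on a normal diet, the 3 Veh libraries from mice on a high-fat diet (HFD) injected with vehicle, PEG3000, and the 4 DPI libraries from HFD mice injected with diphenyleneiodonium (DPI). Mice were 5 weeks of age when the diets began and were fed them for 8 weeks, with DPI (2 mg/kg) or vehicle injections at intervals of 5 days from week 3, whereas the treatment text of the sample labels describes 500 nM DPI for 24 h. No genetic change is given for these mice, and the labels name 1 numbered mouse for each library. DPI blocks flavin-containing enzymes, complex I among them, and the study tested it as an agonist of the receptor GPR3.

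Complex II oxidises succinate and passes the electrons to ubiquinone, complex III carries them from ubiquinol to cytochrome c, and complex IV hands them to oxygen. Complexes III and IV pump protons across the inner mitochondrial membrane, and complex V, the ATP synthase, lets them flow back and makes ATP. Macrophages lean on this chain to different degrees with their state of activation, and the subunits encoded in the nucleus must be made in step with a smaller set encoded in mitochondrial DNA, which was not analysed here.

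Library totals ran from 3534325 to 15585775 counts (median 4918629), and 27.0 to 44.5% of a library fell on the ribosomal RNA precursor Rn45s. CPM are the counts of a gene scaled to the size of its library. Of the 6 genes that mark resident Kupffer cells, the macrophages of the labels, 3 were tested. Of the others Marco had at most 1 count in a library, Vsig4 at most 3.00 CPM and Timd4 at most 5.23 CPM, with 0 counts in several libraries each. The 3 tested reached 45.6 CPM for Clec4f and 30.4 CPM for Clec1b, both in ND2, and 36.8 CPM for Cd5l in DPI1. Clec1b, at 0.364 CPM in ND1, was called lower with the diet (log2 fold change -3.37, beside 11.7% of all genes called). The summed level of the 6 genes ranged from 0.496 to 103 CPM. The summed level of 7 general macrophage genes was 15292 to 44457 CPM, most of it Lyz2 (13980 to 42930 CPM). Of the 7, 2 were called lower with the diet, Emr1, which encodes F4/80, and C1qa (log2 fold changes of -1.05 and -1.37, beside 11.7% of all genes called), with Cd68 at 0.53, and 1 was called higher with DPI, C1qa (1.14, beside 2.84%), with Itgam, Cd68 and Csf1r at -0.08, -0.17 and -0.17. The summed level of 9 neutrophil genes ranged from 767 to 5098 CPM, that of 5 B cell genes from 14.9 to 405 CPM with the highest value in DPI4, and that of 6 endothelial genes from 4.27 to 172 CPM, of which 3 were called lower with the diet (Stab2, Clec4g and Kdr) and 1 higher (Pecam1, 0.911 and 1.12 CPM on ND and 8.66, 9.07 and 1.73 CPM with vehicle). The summed level of 6 eosinophil genes was at most 3.26 CPM on ND and with vehicle, and 111, 111, 0.371 and 66.0 CPM in DPI1 to DPI4. The 4 tested (Prg2, Epx, Ear1 and Ear6), with at most 10 counts in any other library than those of DPI, were called higher with DPI. That of 10 hepatocyte genes was 275 and 444 CPM on ND, 155 to 192 CPM with vehicle and 193 to 336 CPM with DPI, of which Trf held 127 to 299 CPM. All 9 tested were negative with the diet, and Alb (-2.74) and Ttr (-4.85) were called lower. The 10 T and NK cell genes summed to 88.3 to 414 CPM, and Cd3e was called higher with the diet (2.23). The part of these cell types in the results was not tested. Since these are bulk samples, fewer cells of a type and less RNA per cell cannot be told apart.

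Promoter and coding sequences show how these genes are built before their levels are given. The first set holds promoter windows, from 250 bases before to 50 bases after the start of the gene, taken from RefSeq with the build GRCm38.p6. Windows were found for 37 of the 47 genes. They were searched on both strands for the letters GCGCATGC, the core of the site of NRF1, for CCGGAAG, the core of ETS factors such as GABPA, and for AAGATGG, the core of YY1, 3 factors long linked to respiratory genes. The NRF1 letters read GCATGCGC on the other strand, so that matches on both strands can overlap. Capitals mark every match in the windows below. Uqcrc1 and Sdhb are shown because their groups did not overlap in the diet and in the DPI comparison, respectively, and Cox8a and Cox8b because they encode the expressed and the silent form of the same subunit.
Uqcrc1: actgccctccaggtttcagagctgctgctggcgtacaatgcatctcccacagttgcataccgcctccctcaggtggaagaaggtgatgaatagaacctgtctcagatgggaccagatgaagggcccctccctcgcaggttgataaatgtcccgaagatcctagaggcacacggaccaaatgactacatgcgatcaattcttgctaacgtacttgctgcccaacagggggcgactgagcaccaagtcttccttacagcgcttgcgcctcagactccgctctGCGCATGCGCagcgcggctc
Sdhb: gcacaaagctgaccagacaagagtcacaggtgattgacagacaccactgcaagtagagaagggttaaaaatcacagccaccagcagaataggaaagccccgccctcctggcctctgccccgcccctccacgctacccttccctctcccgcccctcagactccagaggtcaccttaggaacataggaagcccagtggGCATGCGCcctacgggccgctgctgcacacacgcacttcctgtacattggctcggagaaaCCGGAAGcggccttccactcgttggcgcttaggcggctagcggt
Cox8a: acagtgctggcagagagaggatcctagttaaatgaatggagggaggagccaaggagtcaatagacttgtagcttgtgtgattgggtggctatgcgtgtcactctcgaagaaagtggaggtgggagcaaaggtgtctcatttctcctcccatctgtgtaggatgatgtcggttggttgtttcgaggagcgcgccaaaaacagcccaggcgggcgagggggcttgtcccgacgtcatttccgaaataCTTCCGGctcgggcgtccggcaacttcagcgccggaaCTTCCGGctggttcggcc
Cox8b: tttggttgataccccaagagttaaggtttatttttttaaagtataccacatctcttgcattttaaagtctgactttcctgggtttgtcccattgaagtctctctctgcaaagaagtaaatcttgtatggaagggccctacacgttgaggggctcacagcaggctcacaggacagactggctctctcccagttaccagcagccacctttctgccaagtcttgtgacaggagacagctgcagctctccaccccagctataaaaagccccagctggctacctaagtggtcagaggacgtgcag

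The Uqcrc1 window lies on the + strand of chromosome 9, at chr9:108936398-108936697, and holds overlapping NRF1 letters on both strands close to the start. The Sdhb window, at chr4:140961021-140961320 on the + strand, holds 1 NRF1 and 1 ETS match. The Cox8a window, at chr19:7217567-7217866 on the - strand, holds 2 ETS matches, and the Cox8b window, at chr7:140900397-140900696 on the - strand, holds none. Among the 37 genes with a window, 7 (18.9%) held the NRF1 letters, against 2.80% of the 27025 mouse genes with a window. The ETS letters were in 11 (29.7%), against 9.12%, the YY1 letters in 4 (10.8%), against 6.48%, and any of the 3 in 17 (45.9%), against 17.0%. None of the 4 tissue-restricted isoforms with a window held any of them. Of their ubiquitous partners, Cox6b1 and Cox8a held ETS letters, while Cox7a2 and Cox7b held none of the 3. The letters thus did not set the forms apart in every family. The shares set beside these are over all mouse genes with a window, expressed here or not. A share over expressed genes alone was not computed. A match is a description of the letters in the window and does not show that a factor binds there.

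The second set comes from complex V. Its membrane ring is built of subunit c, which 3 genes encode, and only a read that carries a difference between them can be told to come from 1 of them. The last 228 bases of each coding sequence, stop codon included, were read from the GENCODE M21 transcripts (GRCm38) of Atp5g1 (chr11:96068852-96075670), Atp5g2 (chr15:102662864-102672352) and Atp5g3 (chr2:73908447-73911326), all on the - strand. Capitals mark the 58 positions at which the 3 genes do not all have the same base.
Atp5g1: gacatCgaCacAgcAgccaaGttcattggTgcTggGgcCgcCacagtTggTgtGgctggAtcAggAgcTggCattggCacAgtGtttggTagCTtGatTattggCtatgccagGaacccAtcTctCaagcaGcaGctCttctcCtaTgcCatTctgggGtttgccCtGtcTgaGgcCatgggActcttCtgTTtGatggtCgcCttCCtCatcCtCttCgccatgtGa
Atp5g2: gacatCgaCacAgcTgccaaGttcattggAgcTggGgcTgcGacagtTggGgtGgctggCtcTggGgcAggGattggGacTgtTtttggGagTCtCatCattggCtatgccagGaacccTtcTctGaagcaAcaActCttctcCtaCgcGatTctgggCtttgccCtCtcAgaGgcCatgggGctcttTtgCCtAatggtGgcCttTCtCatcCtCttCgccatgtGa
Atp5g3: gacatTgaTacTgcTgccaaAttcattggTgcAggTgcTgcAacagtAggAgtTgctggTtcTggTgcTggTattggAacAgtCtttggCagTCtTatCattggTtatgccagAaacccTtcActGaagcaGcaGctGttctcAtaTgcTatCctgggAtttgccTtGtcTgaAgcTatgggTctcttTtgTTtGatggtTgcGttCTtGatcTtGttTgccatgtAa

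Over this stretch Atp5g1 and Atp5g2 shared 85.1% of their bases, Atp5g1 and Atp5g3 79.8%, and Atp5g2 and Atp5g3 78.5%. The 75 codons before the stop nevertheless encoded the same residues in all 3 genes, with 0 residues different in any pair. The whole coding sequences had 411, 441 and 426 bases, stop codon included, and the part ahead of this stretch encodes the targeting sequence that is removed on import into the mitochondrion.

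Most of the 41 genes tested were expressed well above the typical gene, and how far their levels differed between libraries is given below. Levels here are CPM scaled by TMM, the trimmed mean of M values. The median of the mean level was 102 CPM over the 41 genes, against 13.0 CPM over all 11393 genes tested. Cox4i1, the subunit IV isoform of most tissues, was the highest, with 590 and 616 CPM on ND, 611, 734 and 785 with vehicle, and 666, 770, 708 and 483 with DPI. The groups overlapped, and DPI4 was the lowest library. Per kilobase of transcript, with 1 GENCODE transcript taken for each gene, Cox4i1 again led with a mean of 889 CPM per kb, followed by Cox8a, the ubiquitous subunit VIII, with 486, and Atp5g2 with 403.

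The levels per kilobase differed between the complexes. The median over the subunits tested was 36.1 CPM per kb for the 4 genes of complex II, 119 for the 8 of complex III, 227 for 11 of complex IV and 133 for 15 of complex V. In complex II, Sdhb had 87.6 CPM per kb and the flavoprotein gene Sdha 26.5. Sdhc, a membrane anchor, had 8.52 CPM per kb, a value that rests on a transcript of 3171 bases. In complex V the ring gene Atp5g2 had the highest value, which rests on a transcript model of 441 bases with no untranslated part, and Atp5k, which encodes the small membrane subunit e, the lowest with 86.0 CPM per kb.

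**Figure D1:**
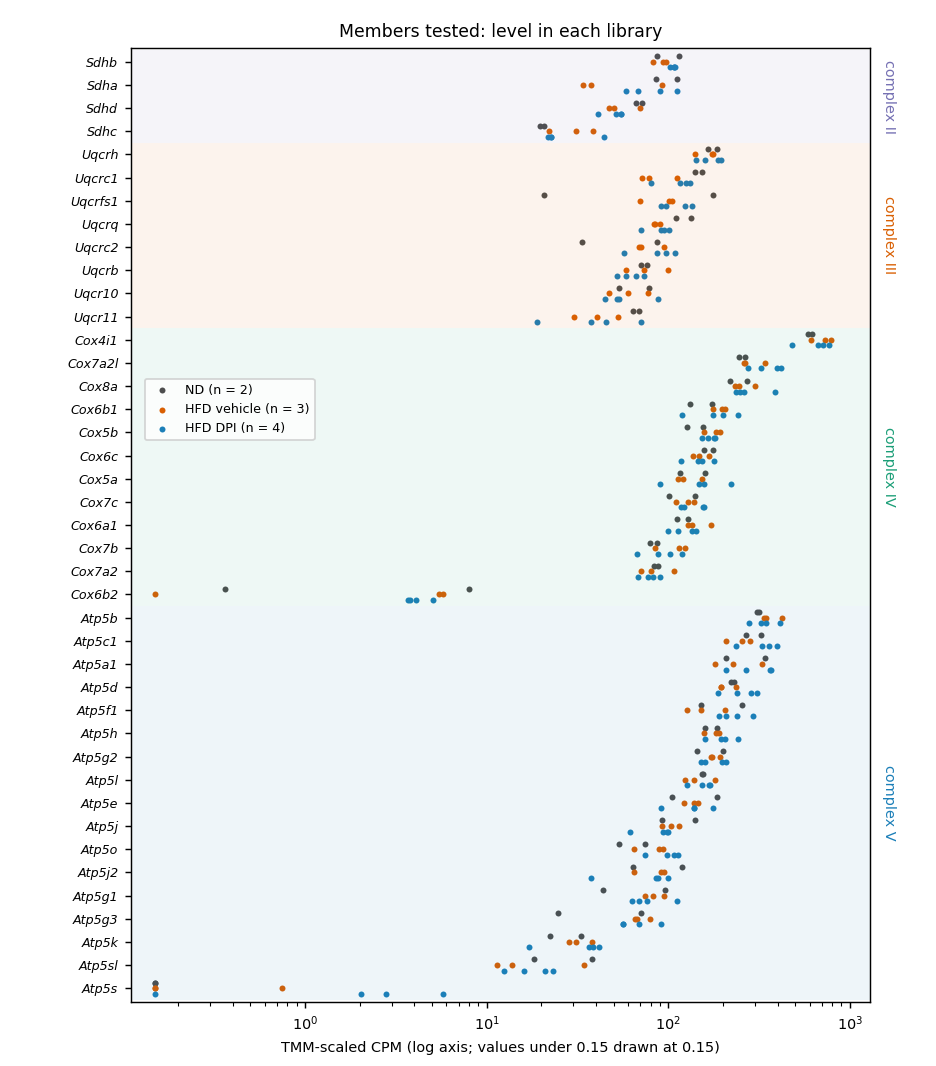
TMM-scaled CPM (log axis) of each of the 41 genes tested, with 1 point per library, ND in grey, HFD vehicle in orange and HFD DPI in blue, and genes ordered by mean level within their complex; values at 0 are drawn at the left edge. Most genes lie in a narrow band in all 9 libraries, with Cox4i1 on top, and the spread is wide for Cox6b2 and Atp5s, which have few counts, and between the ND points of Uqcrfs1 and Uqcrc2.

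Replicates lay closer together for most of these genes than for the typical gene. The median coefficient of variation was 17.4% on ND, 16.0% with vehicle and 20.0% with DPI, against 50.6, 39.1 and 42.1% over all genes tested, most of which had far fewer counts. Some genes were exceptions. Uqcrfs1, which encodes the Rieske iron-sulfur protein, the catalytic centre of complex III that takes electrons from ubiquinol, had 20.8 CPM in ND1 and 177 CPM in ND2, an 8.52-fold gap. Uqcrc2 had 33.5 CPM in ND1 and 86.7 in ND2, and Atp5g1 had 43.9 and 95.4. Atp5g3 went the other way, with 70.8 CPM in ND1 and 24.8 in ND2.

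Of the isoforms known from muscle, lung or testis, 6 had too few counts to be tested. Cox7b2, Cox8b and Cox8c had 0 counts in every library, which with a floor of 3 counts allows up to 0.184 to 1.02 CPM by library. Cox4i2, the subunit IV form of lung and of oxygen-sensing cells, had 13 counts in Veh2, 5 in DPI3, 2 in DPI4 and 0 in the other libraries. Cox6a2, the heart and muscle form of subunit VIa, had 2 counts in ND2, 1 in Veh1, 6 in Veh3 and 0 elsewhere, and Cox7a1, the heart and muscle form of subunit VIIa, had 17 counts in DPI1, 1 in DPI2 and 0 elsewhere. In every library the ubiquitous partner made up at least 97.8% of the family's summed CPM per kb for Cox4i1, Cox6a1, Cox7a2, Cox7b and Cox8a. Cox6b2, the testis form of subunit VIb, was the only restricted isoform tested, with 0.364 and 8.03 CPM on ND, 5.77, 0 and 5.45 with vehicle, and 5.09, 4.08, 3.71 and 3.78 with DPI. It made up 0 to 5.74% of its family, beside Cox6b1 with 119 to 243 CPM.

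Among the genes of subunit c, whose sequences are given above, Atp5g2 had the largest share in every library. Of the summed CPM per kb it took 67.6% ± 3.23 (SD, n = 2) on ND, 63.0% ± 3.07 (n = 3) with vehicle and 63.8% ± 4.63 (n = 4) with DPI. Atp5g1 took 14.8 to 29.9% and Atp5g3 5.38 to 19.9% by library. The order Atp5g2, Atp5g1, Atp5g3 held in 8 of 9 libraries, and in ND1 Atp5g3 came ahead of Atp5g1. With no length scaling, an alternative chosen after seeing the data, Atp5g2 took 48.7 to 62.3%, Atp5g1 17.0 to 34.1% and Atp5g3 7.78 to 27.5%, and Atp5g3 was also ahead of Atp5g1 in DPI1 and DPI2. The shares thus depend on the transcript lengths used, that of Atp5g2 holding no untranslated part. The part of reads in stretches shared by the 3 genes, or by their pseudogenes, was not tested.

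**Figure D2:**
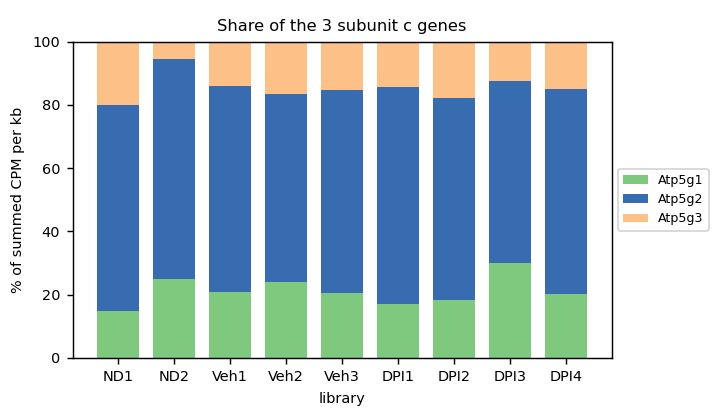
Share of Atp5g1, Atp5g2 and Atp5g3 in the summed CPM per kb of the 3 genes, as stacked bars in % for each of the 9 libraries. Atp5g2 holds 57.6 to 69.8% in every library, and ND2 has the smallest share of Atp5g3, 5.38%.

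The first comparison asks what a high-fat diet does to these genes, as the vehicle libraries against ND. None of the 41 genes was called, at an unadjusted p under 0.05 with at least a 2-fold change, whereas 11.7% of all genes tested were. None had an adjusted p under 0.05 (0.0614% of all genes, by edgeR's quasi-likelihood test adjusted over all genes), and the smallest was 0.356. Only Uqcrc1 had an unadjusted p under 0.05, against 13.0% of all genes. DESeq2 and edgeR's likelihood ratio test likewise gave 0 adjusted calls among the 41 genes, beside 319 and 280 of all 11393 genes. Each gave 1 of the 41 with an unadjusted p under 0.05. The log2 fold change was positive for 20 genes and negative for 21, with a median of -0.07 beside 0.03 over all genes. Without Atp5s, which had more than 3 counts only in DPI libraries, 19 of 40 were positive, with a median of -0.08.

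The fold changes of the diet comparison were small as well as mixed in sign. In 33 of 41 genes (80.5%) the log2 fold change was under 0.5 in size, against 40.6% of all genes, and the 95% interval lay within a 2-fold change either way for 22 (53.7%), against 5.85%. The median standard error was 0.33 for these genes and 0.73 over all genes, and the difference in counts between the sets, given above, goes with it. Scaling to library size in place of TMM moved the median of all genes to -0.26 and that of the 41 genes to -0.35. With it 9 of 41 genes were positive, beside 38.9% of all genes, against 20 of 41 and 51.5% with TMM. The medians thus moved down together, while the part of positive genes fell further in the 41 genes.

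**Figure D3:**
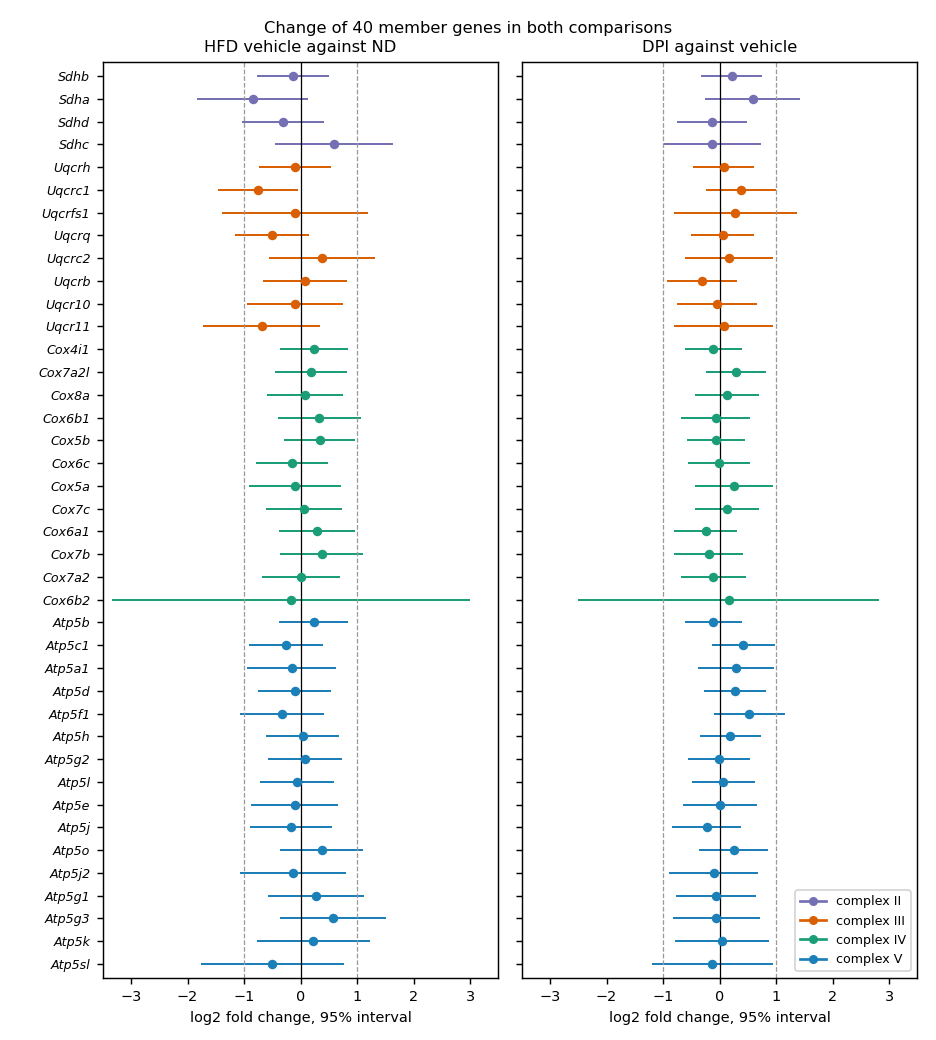
Log2 fold change with its 95% interval for 40 of the genes tested, coloured by complex, for HFD vehicle against ND (left) and DPI against vehicle (right); dashed lines mark a 2-fold change and Atp5s, which has too few counts, is left out. Only the interval of Uqcrc1 on the left stays clear of 0, and no interval on the right does.

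Complex II was the complex with the lowest median in the diet comparison, -0.22, with 1 of 4 genes positive. Its summed level was 287 and 289 CPM on ND and 202, 282 and 213 CPM with vehicle, so that all 3 vehicle libraries lay below both ND libraries, with Veh2 close to them. Sdha, the flavoprotein that oxidises succinate, had 85.4 and 112 CPM on ND and 33.7, 92.3 and 37.7 CPM with vehicle. Veh1 and Veh3 were low and Veh2 lay between the ND values. The log2 fold change was -0.85 (SE 0.44, adjusted p = 0.434 by edgeR). It was -0.54 without Veh1, -0.59 without Veh3 and, past the thresholds of a call, -1.46 without Veh2 (adjusted p = 0.216). Sdhb, the iron-sulfur subunit next to it, did not share the pattern, with a log2 fold change of -0.14 (95% interval -0.76 to 0.49). The membrane anchors differed from each other, Sdhd with -0.31 and Sdhc with 0.59, and Sdhc was higher in all 3 vehicle libraries (38.4, 21.9 and 31.0 CPM) than in ND (20.8 and 19.6 CPM).

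Complex III held the one gene with an unadjusted p under 0.05. Uqcrc1, core protein 1, which with core protein 2 forms the matrix side of the complex, had 141 and 153 CPM on ND and 78.4, 111 and 71.9 CPM with vehicle. Both ND libraries were above all vehicle libraries. The log2 fold change was -0.75 (SE 0.32, 95% interval -1.45 to -0.06, adjusted p = 0.356 by edgeR). Leaving out ND1, ND2, Veh1, Veh3 or DPI2 took the unadjusted p above 0.05, with an adjusted p of 0.453, 0.383, 0.583, 0.628 and 0.436 and a log2 fold change between -0.58 and -0.80. Its partner Uqcrc2 had a log2 fold change of 0.38 (adjusted p = 0.764), which was -0.14 without ND1 and 1.25 without ND2.

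The groups did not overlap for 3 genes that were lower with vehicle, all of complex III, which is 3 of 41 beside 12.5% of all genes. They were Uqcrc1 and the small subunits Uqcrq and Uqcr11. Uqcrq had 134 and 110 CPM on ND and 83.0, 84.2 and 90.0 CPM with vehicle, with a log2 fold change of -0.51 (adjusted p = 0.484). Uqcr11 had 63.7 and 69.3 CPM against 40.6, 30.3 and 53.0 CPM, with a log2 fold change of -0.69 (adjusted p = 0.564). The others of the complex were closer to 0, with Uqcrb, which contacts cytochrome b, at 0.08, Uqcrh, the hinge protein near cytochrome c1, at -0.10 and Uqcr10 at -0.10. The summed level of complex III was 702 and 915 CPM on ND and 695, 683 and 681 CPM with vehicle, again without overlap. Uqcrfs1 was at 101, 104 and 70.1 CPM with vehicle, between its ND values of 20.8 and 177, and its log2 fold change of -0.10 became 2.18 (adjusted p = 0.0260) without ND2 and -0.93 (adjusted p = 0.351) without ND1.

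Complex IV had the highest median in the diet comparison, 0.13, with 9 of 12 genes positive and all 12 under 0.5 in size. With library size scaling its median was -0.16, with 3 of 12 positive, beside a median of -0.26 and 38.9% positive over all genes. For 5 of the 41 genes the vehicle libraries lay wholly above ND, beside 15.0% of all genes, and 3 of the 5 were of complex IV. Cox5b, a zinc-binding subunit on the matrix side, had 127 and 156 CPM on ND and 183, 158 and 194 CPM with vehicle (log2 fold change 0.33, adjusted p = 0.654). Cox6a1 (0.28) and Cox6b1 (0.33) also did not overlap, and the other 2 genes were Sdhc and Atp5b, whose values are given with their complexes. Cox5a, a peripheral subunit on the matrix side, was at -0.10, Cox6c at -0.15, Cox7c at 0.06, Cox8a at 0.08 and Cox4i1 at 0.24. Cox7b at 0.37 and Cox7a2 at 0.00 completed the ubiquitous forms. The summed level of complex IV was 2046 and 2187 CPM on ND and 2303, 2338 and 2495 CPM with vehicle, which do not overlap. As a share of all counts but those of Rn45s, complex IV overlapped, with 0.368 and 0.354% on ND and 0.360, 0.320 and 0.369% with vehicle, whereas complexes II, III and V were lower in every vehicle library.

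Complex V had a median of -0.07 in the diet comparison, with 8 of 17 genes positive, Atp5s among them. In its catalytic head, Atp5b, the beta subunit that makes ATP, had 317 and 309 CPM on ND and 344, 421 and 339 CPM with vehicle (log2 fold change 0.23, adjusted p = 0.783). Atp5a1, the alpha subunit beside it, was at -0.16, and the rotor genes Atp5c1, Atp5d and Atp5e were at -0.26, -0.11 and -0.10. In the peripheral stalk, which holds the head still, Atp5f1 was at -0.33, Atp5h at 0.04, Atp5j at -0.17 and Atp5o at 0.37. The ring genes were at 0.27 for Atp5g1, 0.07 for Atp5g2 and 0.57 for Atp5g3. Atp5g3 had an adjusted p of 0.606 with all libraries, and without ND1 it was past the thresholds of a call, with a log2 fold change of 1.52 and an adjusted p of 0.207, whereas without ND2 the log2 fold change was 0.03. Atp5sl had the largest negative value of the 17, -0.50, which was 0.12 without ND1 and -1.11 without Veh3.

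**Figure D4:**
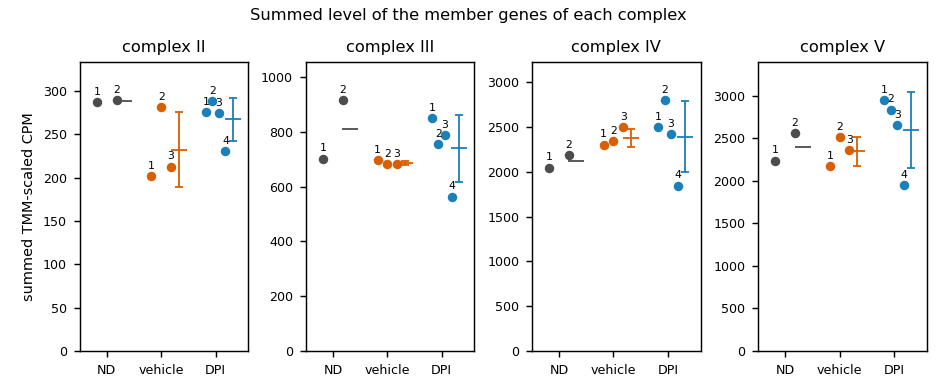
Summed TMM-scaled CPM of the genes of each complex in each library (points, numbered by replicate), with the group mean as a bar and, for groups of 3 or 4 libraries, its SD. DPI4 is the lowest of the DPI libraries in all 4 panels, and on this scale the ND and vehicle points of complexes II, III and IV do not overlap; as a share of counts without Rn45s those of complexes II, III and V do not.

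The second comparison asks what DPI does on the high-fat diet, as the DPI libraries against the vehicle libraries. None of the 41 genes was called (2.84% of all genes), none had an adjusted p under 0.05 (0.0% of all genes, by edgeR's quasi-likelihood test) and none had an unadjusted p under 0.05 (4.13% of all genes). DESeq2 and the likelihood ratio test also gave 0 of the 41 genes at either p, beside 2 and 1 of all 11393 genes at the adjusted p. Each of the 41 genes had an adjusted p of 0.999, and the smallest unadjusted p was that of Atp5f1. The log2 fold change was positive for 23 genes and negative for 18, with a median of 0.06 beside 0.04 over all genes. Without Atp5s 22 of 40 were positive, with a median of 0.05. The log2 fold change was under 0.5 in size for 38 of 41 genes, against 60.5% of all genes. The 95% interval lay within a 2-fold change for 35 (85.4%), against 14.7%.

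The median and the count of positive genes moved with single libraries in this comparison. DPI4 was the lowest of the 4 DPI libraries for 35 of the 41 genes, and the summed level of all 47 genes was 6581, 6684 and 6133 CPM in DPI1, DPI2 and DPI3 but 4592 CPM in DPI4, beside 5373, 5817 and 5751 CPM with vehicle. B cell genes, summed over 5 markers, stood at 405 CPM in DPI4 and at 15.6 to 117 CPM in the other DPI libraries. Of 9 neutrophil genes, S100a8 and S100a9 were highest in DPI4 among the DPI libraries, at 1899 and 2356 CPM, whereas Camp, Elane and Mpo were lowest there, at 23.3, 7.76 and 3.47 CPM. The part of either cell type in the result was not tested. Without DPI4, 32 of 41 genes were positive and the median was 0.16, beside 51.2% positive and a median of 0.02 over all genes. Leaving out DPI1, DPI2 or Veh2 gave a median of -0.00, -0.03 and -0.00, beside 0.03, 0.03 and 0.07 over all genes. No gene had an adjusted p under 0.05 in any of these fits.

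In complex II the DPI comparison had a median of 0.04. Sdhb was the only one of the 41 genes whose DPI libraries all lay above the vehicle libraries (3.38% of all genes), and no gene was lower without overlap (2.48% of all genes). It had 82.8, 97.8 and 93.9 CPM with vehicle and 107, 102, 107 and 108 CPM with DPI, a log2 fold change of 0.22 (95% interval -0.31 to 0.74). The 2 ND libraries, at 115 and 86.5 CPM, span that gap. Sdha had 90.3, 112, 68.3 and 58.7 CPM with DPI, all above Veh1 and Veh3 and, but for DPI2, below Veh2. Its log2 fold change of 0.59 (SE 0.38) became 1.20 without Veh2, past the thresholds of a call, with an adjusted p of 0.558, and 0.32 without Veh1. Since the vehicle libraries stand in both comparisons, a low Sdha in Veh1 and Veh3 enters both with opposite sign. Sdhc was at -0.13 and Sdhd at -0.13.

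In complex III the median of the DPI comparison was 0.07, with 6 of 8 genes positive. Uqcrc1 had 131, 116, 125 and 80.7 CPM with DPI, of which DPI4 lay among the vehicle libraries and the other 3 above them and below ND. Its log2 fold change was 0.38 (SE 0.28), against the same vehicle libraries as in the diet comparison. Uqcrfs1 was at 0.28, Uqcrc2 at 0.17, Uqcrh at 0.07, Uqcr11 at 0.07 and Uqcrq at 0.06. Uqcrb had the lowest value of the 41 genes, -0.31 (SE 0.28).

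In complex IV the median was -0.04, with 5 of 12 genes positive. Cox4i1 was at -0.11 (95% interval -0.60 to 0.37), Cox5a at 0.26, Cox5b at -0.07, Cox6c at -0.01, Cox7c at 0.13 and Cox8a at 0.13. Cox6a1 (-0.25), Cox7b (-0.19) and Cox7a2 (-0.11) were on the negative side and Cox6b1 at -0.07. Cox7a2l, the supercomplex factor, had 397, 325, 416 and 274 CPM with DPI and 266, 340 and 260 CPM with vehicle, a log2 fold change of 0.29 (SE 0.24), the largest in its set of 12. Cox6b2, on few counts, was at 0.16 with an interval of -2.49 to 2.81.

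In complex V the median was 0.04, with 10 of 17 genes positive, Atp5s among them. Atp5s, which has few counts, is given below by its counts, and among the other 16 the largest values were those of a stalk gene and a rotor gene. Atp5f1, which encodes subunit b of the peripheral stalk, had 127, 207 and 151 CPM with vehicle and 292, 209, 240 and 190 CPM with DPI. DPI4 lay below Veh2 and the other 3 DPI libraries above all vehicle libraries. The log2 fold change was 0.53 (SE 0.29, 95% interval -0.09 to 1.14), and without Veh2 it was 0.74, with an unadjusted p under 0.05 and an adjusted p of 0.790, and 0.37 without Veh1. Atp5c1, the gamma subunit of the central shaft, had 207, 282 and 254 CPM with vehicle and 399, 329, 359 and 237 CPM with DPI, with a log2 fold change of 0.42 (SE 0.25) that was 0.55 without DPI4, again with an unadjusted p under 0.05 and an adjusted p of 0.880, and 0.30 without Veh1.

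Apart from Atp5s, the other genes of complex V were nearer to 0 in the DPI comparison. In the head Atp5a1 was at 0.30 and Atp5b at -0.11, and in the rotor Atp5d was at 0.28 and Atp5e at 0.01. In the stalk Atp5o, the subunit that ties the stalk to the head, was at 0.25, Atp5h at 0.19 and Atp5j at -0.23. The ring genes Atp5g1, Atp5g2 and Atp5g3 were at -0.07, -0.01 and -0.06, and the small membrane subunit genes Atp5k, Atp5l and Atp5j2 at 0.04, 0.07 and -0.11. Atp5s had 0, 0 and 3 counts with vehicle and 94, 6, 15 and 0 counts with DPI. Both ND libraries had 0 counts. The DPI libraries were high, low and absent within the same group, and no fold is given on so few counts.

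**Figure D5:**
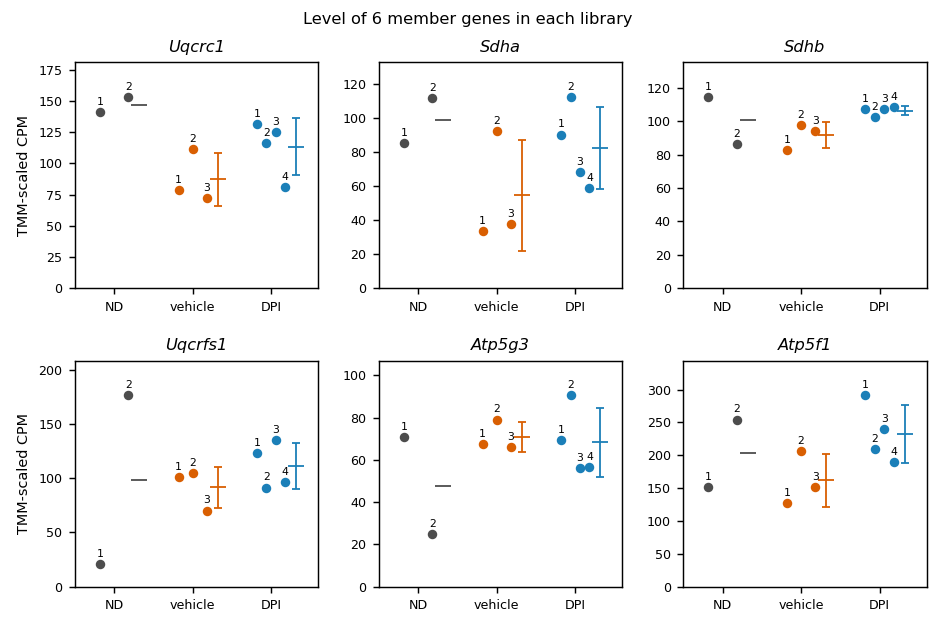
TMM-scaled CPM of 6 genes in each library (points, numbered by replicate) for ND, vehicle and DPI, with the group mean as a bar and, for groups of 3 or 4 libraries, its SD. Both ND points of Uqcrc1 (141 and 153 CPM) lie above the vehicle points, Veh2 stands apart for Sdha at 92.3 CPM, and the ND points of Uqcrfs1 lie at 20.8 and 177 CPM.

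Genes with longer coding sequences stood a little higher in the DPI comparison than short ones. This split was made after the values were seen, at the median coding length of 397 bases and without Atp5s. The median log2 fold change was 0.20 for 20 longer genes, of which 12 were positive, and -0.00 for 20 shorter genes, of which 10 were positive. Over all genes tested the same split gave 0.05 and 0.03. By library the mean log2(CPM + 1) of the longer genes exceeded that of the shorter by -0.01 in Veh1, 0.64 in Veh2 and 0.07 in Veh3, and by 0.40, 0.33, 0.46 and 0.45 with DPI, with 0.15 and 0.32 in ND1 and ND2. Veh2 thus stood above all DPI libraries while the other vehicle libraries stood below them, and the groups overlap.

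Of 6 subunits and helpers of these complexes that the symbols of the rule leave out, all tested, none was called in either comparison. Cyc1, the cytochrome c1 of complex III, was at -0.31 with the diet and 0.38 with DPI, Cycs, the carrier cytochrome c, at 0.41 and 0.02, Ndufa4, a complex IV subunit under a complex I name, at -0.45 and 0.02, and Atpif1, the inhibitor of the ATP synthase, at -0.11 and 0.12. Of 36 assembly factors, 34 were tested. None was called with the diet, where 17 were positive and the median was 0.00. With DPI 21 were positive with a median of 0.13, and 1 of 34 was called, beside 2.84% of all genes. It was Uqcc, a factor for cytochrome b, with 2.22, 2.90 and 6.69 CPM with vehicle and 15.9, 16.0, 10.6 and 5.31 CPM with DPI (log2 fold change 1.60, adjusted p = 0.999 by edgeR).

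Of 12 regulators of mitochondrial biogenesis, 11 were tested and 1 was called in each comparison, beside 11.7% of all genes with the diet and 2.84% with DPI. Esrra, a nuclear receptor that switches on respiratory genes, had 28.6 and 7.66 CPM on ND and 6.66, 5.44 and 6.69 CPM with vehicle (log2 fold change -1.53, adjusted p = 0.379), with ND1 high and ND2 close to the vehicle libraries. Ppargc1b, a coactivator of the same programme, had 19.1, 5.80 and 8.67 CPM with vehicle and 1.04, 6.45, 3.34 and 0.816 CPM with DPI (95% interval of the log2 fold change -3.84 to -0.15, adjusted p = 0.999), and DPI2 lay within the vehicle range. Ppargc1a, its better known relative, was not tested, with at most 0.340 CPM. Nrf1 and Gabpa, which encode factors whose letters were searched in the promoters, were at -0.00 and -0.87 with the diet and -0.17 and -0.12 with DPI, and Yy1 at -0.62 and -0.10, none with an unadjusted p under 0.05.

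Complex I, with 44 genes of symbols starting Nduf tested, and the mitochondrial ribosome, with 76 genes tested, are the sets most like the 41 genes. With the diet the median log2 fold change was -0.05 for complex I and -0.21 for the mitochondrial ribosome, with 2 of 44 and 3 of 76 genes called, beside 11.7% of all genes. With DPI it was 0.15 and 0.18, with 30 of 44 and 51 of 76 genes positive and 0 called in either, beside 0.06 and 23 of 41 for complexes II to V and, over all genes, 53.1% positive and 2.84% called. The median level was 102 CPM for complexes II to V, 49.0 for complex I and 21.8 for the mitochondrial ribosome, and the median standard error in the DPI comparison was 0.28, 0.34 and 0.46. A difference between the sets was not tested.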

How the data were processed

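RNA-seq counts of 9 mouse libraries were analysed, grouped by the sample labels as ND (n = 2), Veh (n = 3) and DPI (n = 4). The authors deposited raw whole-number counts for 23413 gene symbols. By the paper's methods the reads were aligned to mm10 with bowtie2 and counted with RSEM, while the submitters' processing notes name TopHat2, edgeR and mm10. The strand setting of the counting is not given in the sources used here, so reads of a gene and of an antisense partner, and of a gene and its processed pseudogenes, which this family has in number, may not be told apart.

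The test was that of edgeR 4.0.16 under R 4.3.3 (filterByExpr, TMM, glmQLFit and glmQLFTest), in 1 fit of the 3 groups over the 11393 genes that passed the filter, with Benjamini-Hochberg adjustment over all of them. A gene was called at an unadjusted p under 0.05 with at least a 2-fold change, the rule of the study's methods. No p was computed over the list. The floor was 3 counts per library. Floors and intervals cover counting error or the fitted spread only. Alternatives were RLE and library size scaling, no filter or at least 10 counts in every library, DESeq2 1.42.0, the likelihood ratio test, a fit of each comparison alone, a block for the replicate number, leaving out Rn45s, thinning every library to the smallest total, and each library left out in turn. Other tools were Python 3.11.15, pandas 2.3.3, numpy 2.4.6 and matplotlib 3.10.9.

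CPM per kb used 1 GENCODE M21 transcript a gene, by APPRIS rank, support level, longest coding sequence and shortest length. Genes were named if they had an unadjusted p under 0.05, belonged to the catalytic and structural core or to an isoform family, or were among the 5 highest or 5 lowest fold changes of a comparison. The members and lists were chosen with earlier results of these data known.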

Additional observations from a re-analysis of the deposited data

Results flagged for a closer look

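Sdhc, a membrane anchor of complex II, had 22.6, 21.7 and 22.7 CPM in DPI1, DPI2 and DPI4 and 44.3 CPM in DPI3. The gap from DPI3 to the nearest library was 0.96 of the range of the 4 DPI libraries (0.9595), above Dixon's 95% critical value for 4 samples. It was the only one among 39 genes with more than 3 counts in every library for which the DPI group had such a library, and chance alone gives about 1 such group in 20. The log2 fold change of Sdhc against vehicle was -0.13 with all 4 libraries.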

How the results depend on the processing

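For the 20 gene values followed through all alternatives, direction and side of an unadjusted p of 0.05 held in 361 cases, 6 fell short of it, 10 newly passed it and 3 changed sign. The counts over the members stayed within 1.5 times, and their medians within 0.17 on the log2 scale, in 141 cases and moved further in 11. These limits let small medians change sign. In the diet comparison, library size scaling gave 2 members called (Uqcrc1 and Sdha), 9 with a positive log2 fold change and a median of -0.35. Over all genes it gave a median of -0.26, with 38.9% positive. Without a filter on low counts, 1 member was called with DPI, Cox6a2, on at most 6 counts in a library. With each library left out in turn, the diet comparison gave 0 to 2 members called (Atp5g3 without ND1, Uqcrc2 and Uqcrfs1 without ND2, Sdha without Veh2), 0 to 1 past the adjusted p (Uqcrfs1 without ND2), 19 to 26 positive and a median of -0.083 to 0.20. Without ND2, 568 of all 12334 genes were past the adjusted p, with a median of 0.29. The DPI comparison gave 0 to 1 called (Sdha without Veh2, Atp5s without Veh3), 0 to 0 past the adjusted p, 19 to 32 positive and a median of -0.03 to 0.16, so that the sign of both medians is not settled. Among these values, and those of Uqcrfs1 and Atp5sl computed beside them, the range crossed 0 for Atp5sl (-1.11 to 0.12), Uqcrc2 (-0.14 to 1.25) and Uqcrfs1 (-0.93 to 2.18) with the diet and for Sdhd (-0.25 to 0.064) and Atp5sl (-0.41 to 0.52) with DPI. The cause of these moves was not tested.

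The groups share replicate numbers in the labels, but same-numbered libraries did not deviate together (correlations of -0.02 to 0.08), so the number is not taken as a pairing. With the number as a replicate block, in which DPI4 has a term of its own and drops out, 0 members were called or past the adjusted p in either comparison. Over all genes this fit gave a median of 0.09 with 53.8% positive for the diet, and 0.03 with 52.1% positive for DPI. The diet comparison then had 21 positive members, a median of 0.04 and Uqcrc1 at -0.71 (adjusted p = 0.550 by edgeR), with an unadjusted p no longer under 0.05. The DPI comparison had 32 positive members and a median of 0.17, with Sdha at 0.83 (adjusted p = 0.978) and Atp5c1 at 0.56 (adjusted p = 1.0) newly under an unadjusted p of 0.05.

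The 2 ND libraries and the smallest library, of 3534325 counts, limit the precision, and the median standard error of the members was 0.33 with the diet and 0.28 with DPI. Leaving out an ND library leaves that group with 1, which the fit takes to vary like the other groups.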
